A study of Mus musculus with 4 samples.

Results

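The genes described here encode the main conjugating enzymes of mouse liver and the carboxylesterases: glutathione S-transferases (GST), UDP-glycosyltransferases (UGT), sulfotransferases (SULT) and carboxylesterases (CES). Members were all protein-coding genes whose symbol starts with Gsta, Gstm, Gstp, Gstt, Gstk, Gsto, Gstz, Ugt1, Ugt2, Ugt3, Sult, Ces1, Ces2, Ces3 or Ces4, without pseudogenes. The rule uses names only and no measured value. It found 81 of the 37315 genes in the count tables, namely 22 GST, 20 UGT, 21 SULT and 18 CES genes. RNA sequencing of liver was compared between 2 groups of C57BL/6 mice, both 23 weeks old: wild type mice, and mice with a synonymous mutation of the transcription factor gene Foxo1. Each group had 2 libraries. The labels give no agent or diet, no position or zygosity of the mutation, and do not state whether a group's libraries are separate animals, so p-values reflect only how far these samples spread, and that spread may be technical.

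GSTs join glutathione to reactive electrophiles such as lipid peroxidation products. UGTs transfer glucuronic acid or another sugar, and SULTs transfer sulfate, to bilirubin, steroids, bile acids, hormones and drugs, which makes them soluble for export into bile or blood. Carboxylesterases cleave ester bonds of drugs and of lipids, and several act as triacylglycerol or cholesteryl ester hydrolases in hepatocytes. Many of these genes arose by tandem duplication and lie beside close paralogs.

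Total counts ranged from 73551737 to 95908652 per library. Foxo1 itself was at 44.0 and 54.8 CPM (counts scaled to a common library size) in the wild type libraries and at 33.6 and 53.4 CPM in the mutant libraries, so the groups overlapped (log2 fold change −0.18 with an SE of 0.30, edgeR adjusted p = 1.0); its exons overlap the opposite-strand Gm20402. Every log2 fold change (log2FC) is the mutant value relative to wild type. Of 12 macrophage markers, 12 had a positive log2 fold change and 6 passed the test (0.341% of all genes tested passed); their summed level was 347 and 369 CPM in the wild type pair against 528 and 607 CPM in the mutant pair. Of 5 tested erythroid markers, 5 were positive and Hbb-bt passed, and the list summed to 238 and 266 CPM in the wild type pair against 295 and 335 CPM in the mutant pair. Of 7 lymphocyte markers, 6 were positive and Ptprc, which other leukocytes also express, passed; that list summed to 7.79 and 8.14 CPM against 13.7 and 12.2 CPM. In raw counts, wild type replicate 2 stood apart. The mean chi-square per gene between its counts and those of wild type replicate 1 was 70.15. Against the mutant libraries it was 99.78 and 100.4, and it was 57.48 to 60.4 for the pairs without that library. Abundant genes weigh most in this mean. By rank, wild type replicate 2 did not stand apart, being highest in 25.3% and lowest in 24.2% of all genes tested. Results with and without that library are given below where they move. Of 10 hepatocyte markers, 9 were found in the counts. They summed to 105080 and 119260 CPM in the wild type pair against 104510 and 100640 CPM in the mutant pair. Most of the sum was Alb, at 71504 and 80697 CPM in the wild type pair against 67932 and 64783 CPM in the mutant pair. Of the 9 markers, 5 were positive and 4 negative (median log2 fold change 0.07). Among them 0 passed by edgeR, limma-voom or DESeq2, and 0 had an edgeR unadjusted p below 0.05. All 5 kidney markers and 5 of 6 pancreas markers had at most 3 counts in every library. The other pancreas marker, Cela1, was at 22.8 and 20.5 CPM in the wild type pair against 18.3 and 18.5 CPM in the mutant pair. Only 2 of 6 intestine markers and 2 of 5 lung markers were that low. Over the libraries Fabp2 and Lgals4 (intestine) were at 18.6 to 29.9 and 5.23 to 7.75 CPM, and Sftpa1 (lung) at 0.747 to 1.52 CPM. The source of these transcripts was not tested. In bulk tissue, fewer cells of a type and less RNA per cell cannot be told apart, and the part of other cell types in the values below was not tested.

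None of the 61 members that could be tested passed an adjusted p below 0.05 (edgeR quasi-likelihood test, Benjamini-Hochberg adjusted over all 14657 genes tested), where 0.341% of all genes tested did. DESeq2 called 4 members (0.846% of all genes it gave an adjusted p) and limma-voom 0 (0.0478%). At an unadjusted p below 0.05 in edgeR there were 9 members, or 14.8%, against 6.19% of all genes tested: 8 were lower in mutant liver (13.1%, against 2.22%) and 1 was higher (1.64%, against 3.97%). The 3 members with an adjusted p below 0.1 were Ces2e, Gsta4 and Ces1e, all lower in mutant liver, in a direction that 0.109% of all genes tested had at that threshold. The groups did not overlap in 16 members that were lower (26.2%, against 17.0% of all genes tested) and 9 that were higher in mutant liver (14.8%, against 17.0%). For 35 members (57.4%, against 59.5%) the 2 wild type libraries lay further apart on the log2 scale than the fitted group difference. The 20 members left out by the filter on low counts had at most 29 counts in a library, and 9 of them had 0 counts in all 4, which allows up to 3 counts or 0.0315 to 0.0415 CPM per library (counting error only).

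**Figure D1:**
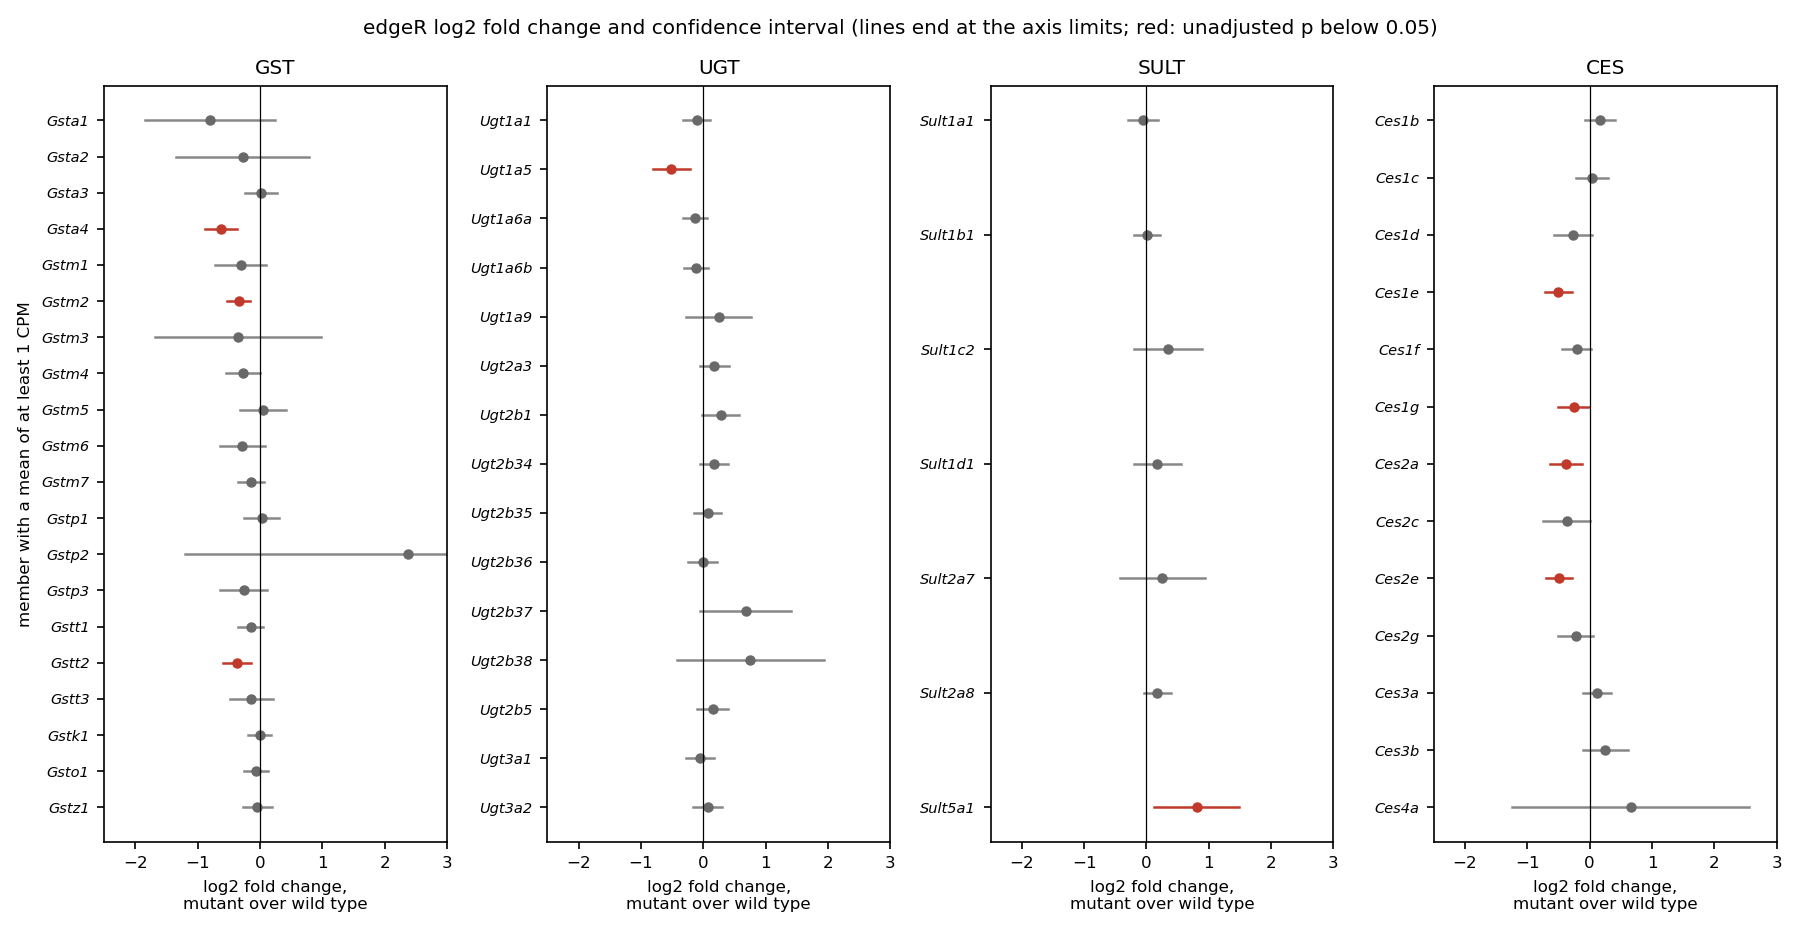
Log2 fold change (mutant over wild type) with its 95% confidence interval from edgeR, for each tested member with a mean of at least 1 CPM, by family; red marks an unadjusted p below 0.05 and lines end at the axis limits. The CES and GST panels hold 7 of the 8 members that were lower at that level, and the interval of Gstp2 is the widest in the plot, from −1.20 to 5.96 in full.

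Of the members, 22 shared more than 10% of their 100-base transcript windows exactly with transcripts of another gene, and exons of 19 overlapped those of another gene; levels of these are uncertain, since the sources used here do not say how reads with several placements were counted. The pi class pair Gstp1 and Gstp2 shows the limit. Their coding sequences, each of 633 bases, differ at 12 bases (98.1% identity), and the longest stretch without a difference runs over 303 bases, longer than the reads of 150 bases. The first 90 coding bases from the GENCODE transcripts hold 6 of the differences, in capitals here:
Gstp1: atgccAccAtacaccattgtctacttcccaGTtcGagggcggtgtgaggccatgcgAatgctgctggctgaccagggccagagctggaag
Gstp2: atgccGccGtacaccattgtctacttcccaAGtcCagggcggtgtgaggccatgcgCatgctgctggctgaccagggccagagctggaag

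Gstp1, the main pi class enzyme (mm10 chromosome 19, 4035407 to 4037985, minus strand), was the most abundant GST per length, at 1328 ± 202 in wild type and 1354 ± 164 CPM per kilobase of merged exons in mutant liver (mean ± SD, n = 2, as for all values written so). Its libraries held 1835 and 2277 CPM in the wild type pair against 1915 and 2275 CPM in the mutant pair, so they overlapped (log2FC 0.03, SE 0.13). Its neighbour Gstp2 (4040285 to 4046023) was at 4.81 and 4.91 CPM in the wild type and 11.3 and 39.4 CPM in the mutant libraries. Both mutant libraries were above both wild type libraries, and they differed from each other more than the lower one did from wild type. The log2FC of 2.38 (SE 0.91, interval −1.20 to 5.96) did not pass (edgeR adjusted p = 0.938). Without mutant replicate 1 it was 3.02 and passed (edgeR adjusted p = 0.000195), and without mutant replicate 2 it was 1.21 (0.0809). As a share of the counts of both genes together, Gstp2 took 0.262% and 0.215% in wild type and 0.586% and 1.70% in mutant libraries. Gstp3, another pi class gene, with 0 shared windows, was at 8.20 and 11.7 CPM in the wild type pair against 7.78 and 8.80 CPM in the mutant pair, which overlapped.

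Over 20 tested GST genes, 16 of them negative, the median log2FC was −0.21, against −0.0013 over all genes tested, where 49.7% were positive. Its lead member was Gsta4, the alpha class enzyme that conjugates 4-hydroxynonenal, a lipid peroxidation product (mm10 chromosome 9, 78182774 to 78209349, plus strand). Gsta4 was at 47.3 and 47.1 CPM in the wild type libraries and at 26.7 and 34.5 CPM in the mutant libraries. The wild type libraries were close together and both mutant libraries lay below them, with a log2 fold change of −0.63 (SE 0.12, interval −0.88 to −0.37, edgeR adjusted p = 0.0614, DESeq2 adjusted p = 0.00233). It shared 0 windows with other genes. Over 12 other settings the log2 fold change of Gsta4 ranged from −0.82 to −0.45, and 4 of them passed, including edgeR with upper quartile scaling (adjusted p = 0.0475); the highest adjusted p was 0.403.

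The 3 alpha class genes on chromosome 9, Gsta1, Gsta2 and Gsta4, summed to 72.1 and 74.4 CPM in the wild type pair against 41.1 and 61.0 CPM in the mutant pair. Gsta1 was at 3.89 and 4.82 CPM in the wild type pair against 1.51 and 3.50 CPM in the mutant pair (log2FC −0.80, SE 0.41, edgeR adjusted p = 0.931). Leaving out mutant replicate 1 gave −0.31 and leaving out mutant replicate 2 gave −1.53. Of its windows, 80.6% are shared with Gm3776, Gsta2 and other copies. Gsta3, on chromosome 1 (21240589 to 21265661), the most abundant alpha class member, was at 1759 and 2167 CPM in the wild type pair against 2028 and 1950 CPM in the mutant pair, so the groups overlapped (0.02, SE 0.12). The difference between the chromosome 9 genes and Gsta3 was not tested.

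The 7 mu class genes lie in a cluster on chromosome 3, from Gstm5 (start 107895821) to Gstm4 (end 108044894). Negative values were seen in 6 of the 7 (50.3% of all genes tested), the median log2FC was −0.28, with a range of −0.36 to 0.05, and 1 had an unadjusted p below 0.05 (6.19% of all genes tested). That was Gstm2, at 81.1 and 83.5 CPM in the wild type pair against 64.9 and 65.0 CPM in the mutant pair, with groups that did not overlap (log2FC −0.34, SE 0.09, edgeR adjusted p = 0.194). The value of Gstm2 stayed between −0.36 and −0.32 when any 1 library was left out. Gstm1, the most abundant mu class enzyme at 1219 ± 177 CPM per kilobase in wild type liver, was at 1612 and 1980 CPM in the wild type pair against 1212 and 1694 CPM in the mutant pair. The mutant libraries of Gstm1 overlapped the wild type range, and its log2 fold change of −0.31 (SE 0.18) was −0.08 without mutant replicate 1, and leaving out wild type replicate 2 gave −0.15. Gstm3 had the largest negative value of the class (−0.36) and an SE of 0.38, and the libraries of each group lay far apart, at 72.7 and 112 CPM in the wild type pair against 57.9 and 86.6 CPM in the mutant pair, and its value was −0.0087 without wild type replicate 2. Gstm5 was the member with a positive value (0.05, SE 0.17). In the class, wild type replicate 2 was the highest library in 6 of the 7 genes (25.3% of all genes tested). Mutant replicate 1 was the lowest in 6 (25.2%). Without wild type replicate 2, the log2FC was −0.23 for Gstm4, 0.18 for Gstm5, −0.04 for Gstm6 and −0.03 for Gstm7.

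Gstt2 (chromosome 10) was at 25.2 and 27.8 CPM in the wild type pair against 19.6 and 21.2 CPM in the mutant pair, without overlap (log2FC −0.37, SE 0.10, edgeR adjusted p = 0.277). Gstt1, in the same cluster, was at 143 and 150 CPM in the wild type pair against 131 and 133 CPM in the mutant pair (−0.15, SE 0.09). The theta member Gstt4 had 0 counts in every library.

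Gstz1, the zeta class enzyme that also acts as maleylacetoacetate isomerase in tyrosine breakdown, was at 706 and 782 CPM in the wild type pair against 712 and 733 CPM in the mutant pair. The log2 fold changes of Gstz1, the kappa class Gstk1 and the omega class Gsto1 were −0.04 (SE 0.11), −0.0047 (SE 0.09) and −0.06 (SE 0.09), and the groups overlapped in each. Exons of Gstz1 overlap those of Pomt2 on the opposite strand.

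Among the 20 tested GST genes, wild type replicate 2 was the highest library in 15 (25.3% of all genes tested had it highest) and mutant replicate 1 the lowest in 13 (25.2%). Without wild type replicate 2 the family median was −0.03, and without mutant replicate 2 it was −0.34. Summed over the family, GST transcripts were at 6694 and 8088 CPM in the wild type pair against 6547 and 7440 CPM in the mutant pair, so the sums overlapped. Within the family, and per length, Gstp1 took 35.8% and 36.6% of the GST level in wild type and 40.1% and 39.6% in mutant libraries, whereas Gstm1 took 33.1% and 33.5% against 26.7% and 31.0%. For both genes the shares did not overlap between the groups; shares were not tested.

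**Figure D2:**
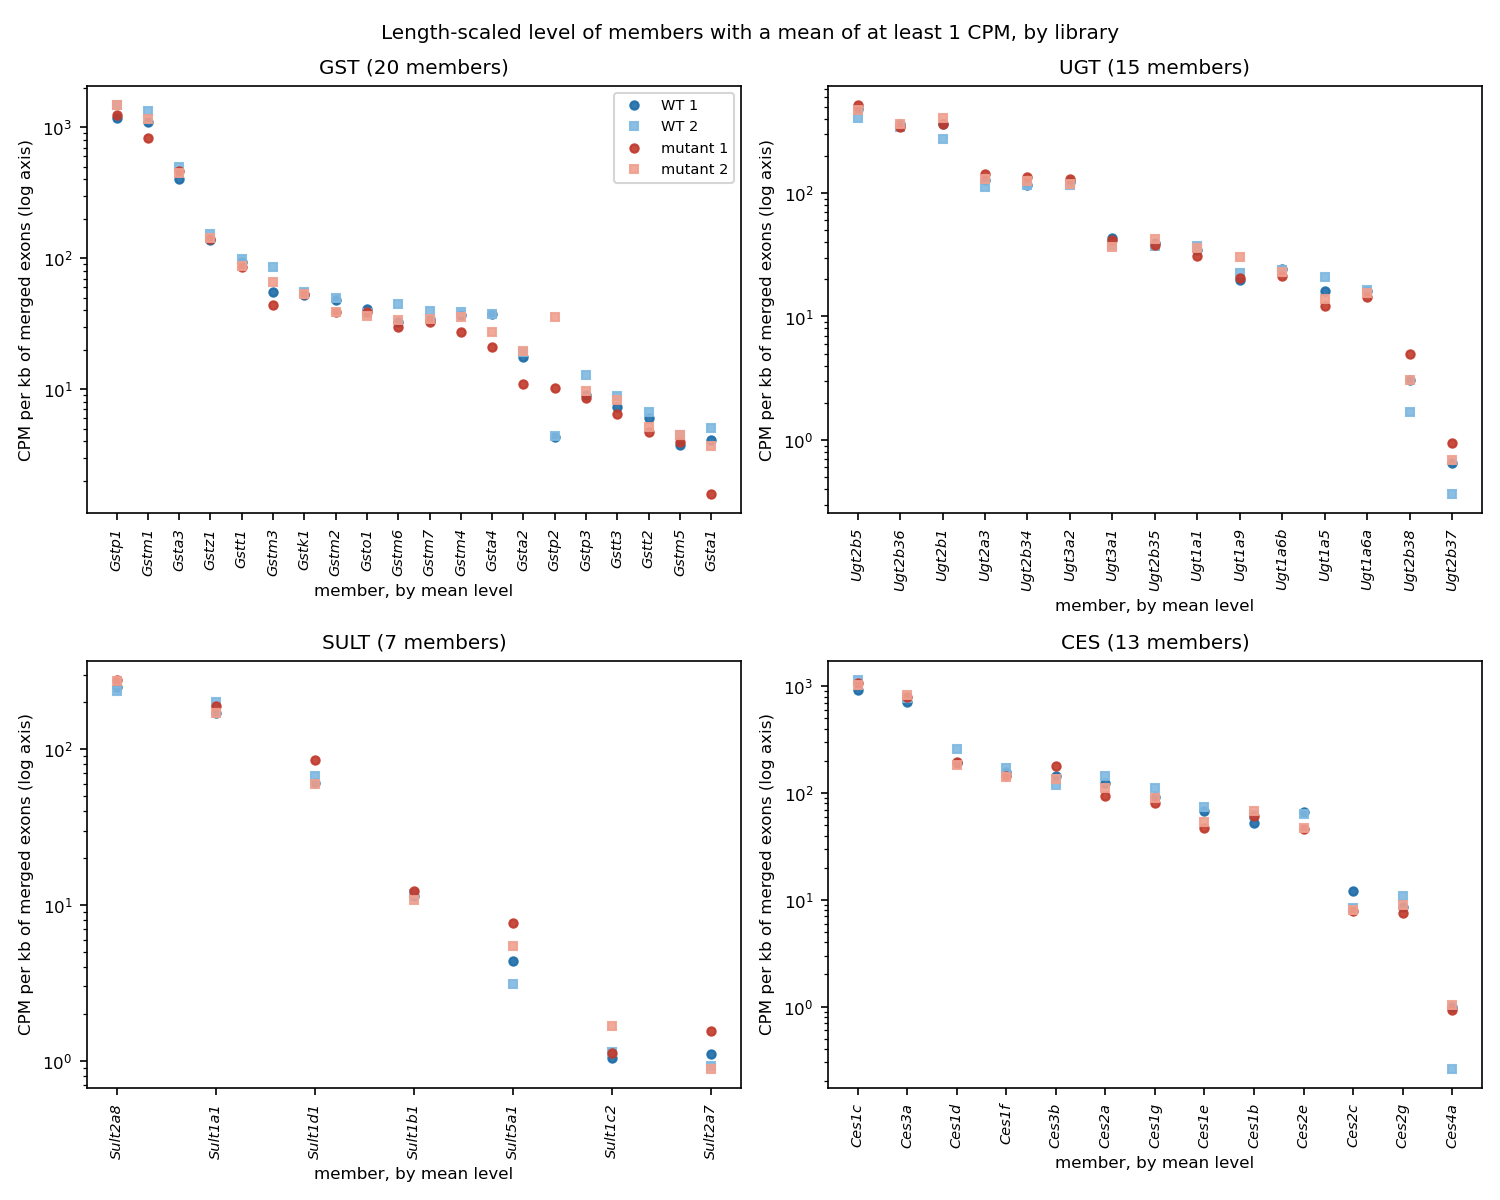
Level per kilobase of merged exons (CPM per kb, log axis) in each of the 4 libraries, for every member with a mean of at least 1 CPM, ordered by mean level within each family; blue is wild type, red is mutant, circles are replicate 1 and squares replicate 2. A few genes carry each family (Gstp1, Gstm1 and Gsta3; Ugt2b5, Ugt2b36 and Ugt2b1; Sult2a8 and Sult1a1; Ces1c and Ces3a), and Gstp2 is the member whose mutant libraries lie furthest from wild type.

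Over 18 tested UGT genes, 12 positive and 6 negative, the median log2FC was 0.13. The Ugt1 genes on chromosome 1 (88055388 to 88220002) have their own first exons and share the exons after them, so that only 17.3% to 49.7% of a member's exon bases are its own, and how reads from the shared exons were counted is not known here. Ugt1a1, the enzyme that conjugates bilirubin, was at 76.9 and 83.4 CPM in the wild type pair against 68.9 and 80.3 CPM in the mutant pair, with overlapping groups (−0.10, SE 0.10). Ugt1a5 was at 35.5 and 46.2 CPM in the wild type pair against 26.7 and 30.6 CPM in the mutant pair. Both mutant libraries of Ugt1a5 were below both wild type libraries (log2FC −0.51, SE 0.13, interval −0.80 to −0.22, edgeR adjusted p = 0.273), and the value was −0.31 without wild type replicate 2. Ugt1a9 was at 43.6 and 49.3 CPM in the wild type pair against 44.8 and 65.8 CPM in the mutant pair, and its sign turned from 0.25 to −0.06 without mutant replicate 2. Ugt1a6a and Ugt1a6b, enzymes for planar phenols, had log2 fold changes of −0.12 and −0.12 (SE 0.09 each), and Ugt1a8 had 0 counts.

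Of the 8 tested Ugt2 genes, all on chromosome 5, 7 had positive values (49.7% of all genes tested), with a median log2FC of 0.17. At an unadjusted p below 0.05 in edgeR there were 0, and 0 passed in edgeR, DESeq2 or limma-voom. Wild type replicate 2 was the lowest library in 7 of the 8 (24.2% of all genes tested). Without that library the log2FC was 0.09 (Ugt2a3), 0.16 (Ugt2b34), 0.04 (Ugt2b35), −0.05 (Ugt2b36), 0.33 (Ugt2b37), 0.39 (Ugt2b38) and 0.04 (Ugt2b5). Ugt2b1, a steroid and drug glucuronidating enzyme (86916638 to 86926530, minus strand), was at 923 and 708 CPM in the wild type pair against 935 and 1043 CPM in the mutant pair. Both mutant libraries of Ugt2b1 were above both wild type libraries, but wild type replicate 1 was close to them (log2FC 0.28, SE 0.13, edgeR adjusted p = 0.849), and the value was 0.10 without wild type replicate 2. Ugt2b5, the most abundant UGT per length at 444 ± 50.9 CPM per kilobase in wild type and 493 ± 26.7 in mutant liver, and Ugt2b36, at 354 ± 15.5 in wild type liver, had overlapping groups. Ugt2b1 followed at 317 ± 59.1 and 384 ± 29.7 CPM per kilobase, and its order against Ugt2b36 lay within their spread. Ugt2b38 had the largest positive value of the subfamily (0.76, SE 0.42, edgeR adjusted p = 0.966), from 5.80 and 3.17 CPM to 9.43 and 5.74 CPM, with overlap. Leaving out mutant replicate 1 gave 0.35, leaving out wild type replicate 1 gave 1.26, and it shares 24.2% of its windows with Ugt2b5 and Ugt2b37.

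Wild type replicate 2 was the lowest library in 9 of the 18 tested UGT genes (24.2% of all genes tested) and mutant replicate 1 the highest in 7 (24.6%). The family summed to 4252 and 3799 CPM in the wild type pair against 4373 and 4400 CPM in the mutant pair, so that the mutant sums lay close together and above both wild type sums; the sum was not tested. Its percent change of 8.97 was 3.16 without wild type replicate 2. The family median was 0.04 without that library, and 0.0079 without mutant replicate 2. The Ugt3 genes on chromosome 15, which use other sugar donors than glucuronic acid, had log2 fold changes of −0.05 for Ugt3a1 and 0.07 for Ugt3a2 (SE 0.10 each), with overlapping groups.

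Most sulfotransferase genes had few or no counts in these livers: 13 of 21 were not tested and 7 had 0 counts in all libraries, among them Sult2a3 to Sult2a6. Several Sult2a and Sult3a genes are known to be expressed mainly in female mouse liver. Sult2a8, which sulfates bile acids (chromosome 7, 14410686 to 14446769, minus strand), was the most abundant, at 244 ± 7.93 in wild type and 276 ± 2.99 CPM per kilobase in mutant liver. Its libraries held 821 and 784 CPM in the wild type pair against 913 and 899 CPM in the mutant pair, without overlap (log2FC 0.18, SE 0.10, edgeR adjusted p = 0.940). Sult1a1, the phenol sulfotransferase, was at 259 and 302 CPM in the wild type pair against 284 and 258 CPM in the mutant pair (−0.05, SE 0.11). Sult1d1, which acts on catecholamines, was at 150 and 165 CPM in the wild type pair against 209 and 147 CPM in the mutant pair, so that mutant replicate 1 alone was high, and its value turned from 0.18 to −0.10 without it.

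Sult5a1 (chromosome 8, 123140192 to 123158315, minus strand) had the largest positive value of the family and was the 1 member that was higher in mutant liver at an unadjusted p below 0.05. It was at 19.3 and 13.7 CPM in the wild type libraries and at 33.8 and 24.0 CPM in the mutant libraries. Both mutant libraries were above both wild type libraries, and the spread within each group was wide (log2FC 0.81, SE 0.25, interval 0.12 to 1.49, edgeR adjusted p = 0.705). DESeq2 called it higher (adjusted p = 0.0052). Leaving out mutant replicate 1 gave 0.54, and leaving out wild type replicate 1 gave 1.07. Over the 8 tested SULT genes the median was 0.21, with 7 positive, and it was −0.10 without mutant replicate 1, the highest library in 6 of the 8. Family sums were 1285 and 1301 CPM in the wild type pair against 1479 and 1363 CPM in the mutant pair, without overlap.

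**Figure D3:**
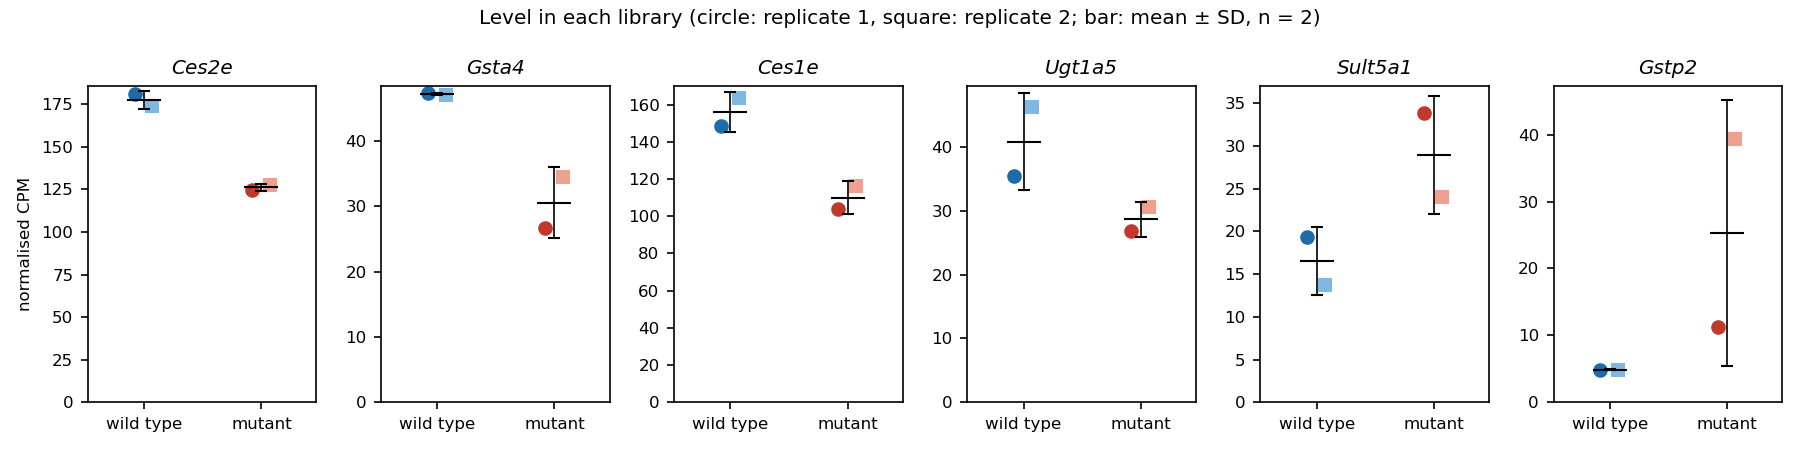
Normalised CPM in each library for 6 members (circles are replicate 1, squares replicate 2; black bars are mean ± SD, n = 2; each axis starts at 0). Both mutant libraries lie below wild type for Ces2e, Gsta4, Ces1e and Ugt1a5 and above it for Sult5a1 and Gstp2, and the mutant libraries of Gstp2 are at 11.3 and 39.4 CPM.

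All carboxylesterase members lie on chromosome 8, with the Ces1 genes between 93020214 and 93379725 and the Ces2, Ces3 and Ces4 genes between 104734003 and 105150109. Over 15 tested members the median log2 fold change was −0.21, with 9 negative, and 4 of the 8 members that were lower at an unadjusted p below 0.05 belong to this family. By subfamily the medians were −0.21 for Ces1, −0.37 for Ces2 and 0.18 for Ces3, a difference that was not tested. Leaving out wild type replicate 1 moved the family median to −0.11, and leaving out wild type replicate 2 moved it to −0.05.

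Ces2e (104926260 to 104934672, plus strand) was the member closest to the threshold over all genes. It was at 181 and 174 CPM in the wild type libraries and at 125 and 128 CPM in the mutant libraries. The libraries of each group were close together and the groups lay far apart, with a log2 fold change of −0.49 (SE 0.09, interval −0.70 to −0.29, edgeR adjusted p = 0.0515, DESeq2 adjusted p = 0.000587, limma-voom not past the threshold). The value stayed between −0.52 and −0.46 with any 1 library left out, and 0 of its windows occur in another gene. Of 12 other settings, 3 passed for Ces2e. Its adjusted p was 0.154 in edgeR without robust estimation and 0.122 in limma-voom. Ces2a, a hydrolase of diacylglycerol and triacylglycerol, was at 295 and 338 CPM in the wild type pair against 220 and 265 CPM in the mutant pair, also without overlap (−0.38, SE 0.12, edgeR adjusted p = 0.398). Ces2c was at 28.0 and 19.4 CPM in the wild type pair against 18.2 and 18.5 CPM in the mutant pair, so that wild type replicate 1 alone stood above the others (−0.37, SE 0.16, edgeR adjusted p = 0.832, and −0.08 without that library); 13.6% of its windows are shared with the pseudogene Ces2d-ps and other copies. Together the Ces2 genes summed to 535 and 570 CPM in the wild type pair against 391 and 443 CPM in the mutant pair, a change of −24.5% of the wild type mean, with no overlap between groups; the sum was not tested.

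In the Ces1 cluster, 2 of 7 tested genes had an unadjusted p below 0.05, both lower (2.22% of all genes tested). Ces1e (93201218 to 93229619, minus strand), known as egasyn and an anchor of beta-glucuronidase in the endoplasmic reticulum, was at 148 and 164 CPM in the wild type pair against 104 and 116 CPM in the mutant pair. The groups did not overlap (log2FC −0.50, SE 0.10, interval −0.72 to −0.28, edgeR adjusted p = 0.0730, DESeq2 adjusted p = 0.00234). Ces1g, a hydrolase involved in hepatic triacylglycerol handling, was at 222 and 264 CPM in the wild type pair against 191 and 215 CPM in the mutant pair (−0.26, SE 0.11, edgeR adjusted p = 0.778), and its value was −0.13 without wild type replicate 2. Ces1d, the triacylglycerol hydrolase of hepatocyte microsomes, was at 456 and 619 CPM in the wild type pair against 460 and 434 CPM in the mutant pair, so that wild type replicate 2 alone was high. Its value of −0.26 (SE 0.14) was −0.03 without that library. Ces1f lay between, at 520 and 570 CPM in the wild type pair against 475 and 467 CPM in the mutant pair (−0.21, SE 0.10). In contrast, Ces1c, a carboxylesterase secreted into plasma and the most abundant CES per length, was at 1032 ± 155 in wild type and 1058 ± 31.0 CPM per kilobase in mutant liver (log2FC 0.04, SE 0.12), and Ces1b had a positive value (0.17, SE 0.11), with overlap in both.

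Ces3a, the next most abundant member at 747 ± 48.7 and 810 ± 28.6 CPM per kilobase, was at 1873 and 2054 CPM in the wild type pair against 2075 and 2181 CPM in the mutant pair. Its groups did not overlap, but the gap between them was smaller than the distance between the wild type libraries (0.12, SE 0.11, edgeR adjusted p = 1.0). Ces3b was at 373 and 308 CPM in the wild type pair against 465 and 346 CPM in the mutant pair (0.25, SE 0.16), and its value was 0.02 without mutant replicate 1. Ces4a was at 2.28 to 2.55 CPM in 3 libraries and at 0.637 CPM in wild type replicate 2, and its value of 0.66 (SE 0.67) was 0.01 without that library. Over the whole family the sums were 6375 and 7323 CPM in the wild type pair against 6792 and 6745 CPM in the mutant pair, which overlapped.

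**Figure D4:**
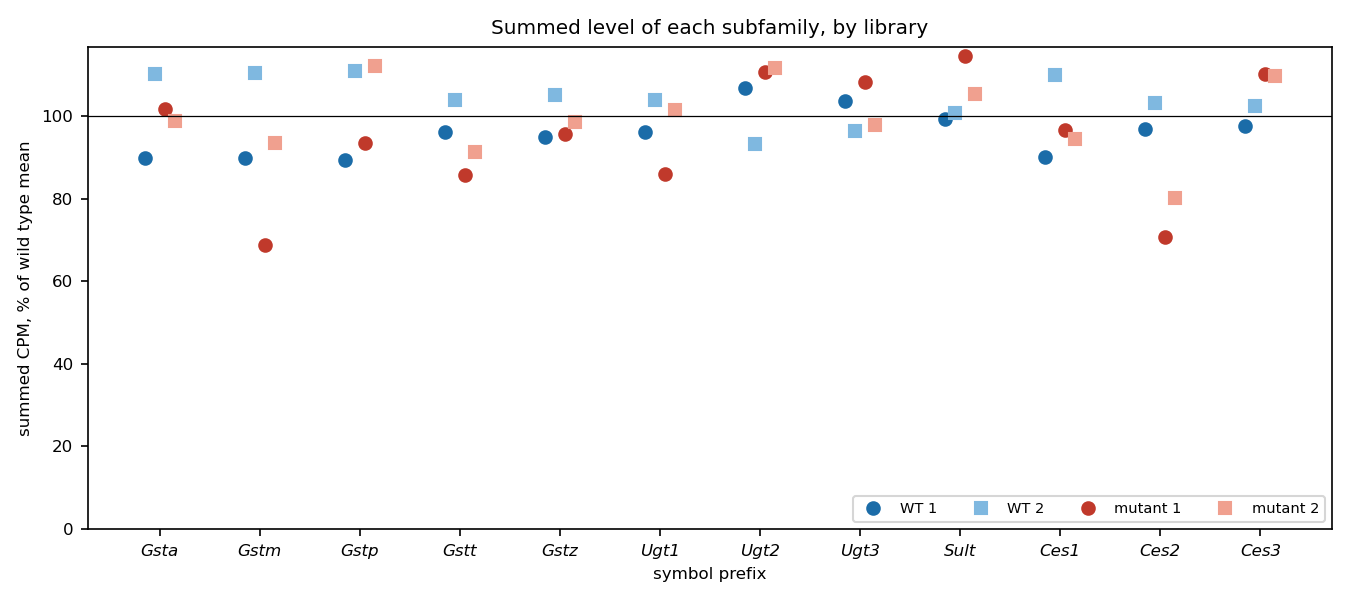
Summed CPM of the genes under each symbol prefix in each library, as a percentage of the wild type mean (y axis from 0; blue is wild type, red is mutant, circles are replicate 1 and squares replicate 2; Gstk, Gsto and Ces4 are left out). Both mutant libraries lie below both wild type libraries for Ces2 and Gstt and above them for Ugt2, Sult and Ces3.

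Promoter sequence is shown for the Ces1 cluster, whose tandem genes had values of either sign. RefSeq promoter windows (GRCm38.p6, 250 bases before to 50 after a start site) were found for 69 of the 81 members, 81 windows in all, and 6 short motifs were searched on both strands. The D-box letters TTATGTAA, read by clock-linked PAR bZIP factors, occurred in 7 of 81 member windows (8.64%), against 0.935% of all 32817 windows. Of the 7 windows, 6 belonged to 5 Ces1 genes and 1 to Ugt2b1. The windows of tandem copies share ancestry and are not independent. The matches with 20 bases on either side, where the window reaches that far, are shown 5′ to 3′ on the gene's strand, with the motif in capitals:
Ces1a: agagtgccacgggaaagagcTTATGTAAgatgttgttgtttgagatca
Ces1b: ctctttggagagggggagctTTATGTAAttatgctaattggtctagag
Ces1c: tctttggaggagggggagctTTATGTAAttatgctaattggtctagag
Ces1e: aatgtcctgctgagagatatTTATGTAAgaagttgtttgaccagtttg
Ces1g: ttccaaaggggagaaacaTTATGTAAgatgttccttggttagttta

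These stretches lie on the minus strand at chr8:93048363-93048410 (Ces1a), chr8:93079997-93080044 (Ces1b), chr8:93131350-93131397 (Ces1c), chr8:93229673-93229720 (Ces1e) and chr8:93337414-93337459 (Ces1g). Counted from the start site, with upstream bases negative, the first base of the motif was at −198 in Ces1a, −94 in Ces1c, −81 in Ces1e and −232 in Ces1g; Ces1b has 2 annotated starts, and the match lies at −84 from one and −7 from the other. The genes that hold the motif had log2 fold changes of −0.50 (Ces1e), −0.26 (Ces1g), 0.04 (Ces1c), 0.17 (Ces1b), 0.28 (Ugt2b1) and −0.09 (Ces1a, at a mean of 0.27 CPM in wild type), so that a match was present in genes with values of either sign. None of these matches overlapped another searched motif.

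The forkhead letters GTAAACA, a form of the element that Foxo factors read, occurred in 5 of 81 member windows (6.17%), against 3.65% of all windows. The 5 genes were Ugt1a2, Ugt2b35, Ugt2b37, Ugt2b38 and Sult1d1, and the stretches of the paralogs Ugt2b37 (chr5:87254928-87254974, minus strand) and Ugt2b38 (chr5:87424329-87424375, minus strand) are alike around the match, in capitals:
Ugt2b37: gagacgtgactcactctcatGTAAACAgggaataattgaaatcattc
Ugt2b38: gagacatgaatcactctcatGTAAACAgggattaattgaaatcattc

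All 5 genes with the forkhead letters had positive log2 fold changes: 0.11 (Ugt1a2), 0.07 (Ugt2b35), 0.68 (Ugt2b37), 0.76 (Ugt2b38) and 0.18 (Sult1d1). Of all genes tested, 49.7% were positive. With or without the letters, 7 of 8 tested Ugt2 genes and 7 of 8 tested SULT genes were positive. Levels were low for Ugt1a2, at 5 to 24 counts per library, and for Ugt2b37, at 0.692 to 1.78 CPM. Only in Ugt2b37 did the groups not overlap (17.0% of all genes tested were higher without overlap). Leaving out 1 library could turn the sign of Ugt1a2, Ugt2b35 and Sult1d1. By edgeR, 0 of the 5 fell under an unadjusted p of 0.05, where 6.19% of all genes tested did. With so few genes, that count cannot tell them from other genes. The antioxidant response core TGACNNNGC, read by NRF2, was in 3 member windows (3.7%, against 12.4% of all windows), those of Gsta3, Gstm5 and Gstm7. The STAT5 type letters TTCNNNGAA were in 6.17% (8.29% of all), the dioxin response core GCGTG in 17.3% (32.4% of all), and the D-box form TTACGTAA in 0 (0.119% of all). A match is a description of letters in these windows and not a measured binding site.

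Genes that supply donors, control the enzymes or export their products were counted from lists of 11 groups. Of all these, 1 gene passed: Nnmt, nicotinamide N-methyltransferase, rose from 98.2 and 105 CPM in wild type to 159 and 145 CPM in mutant liver (log2FC 0.58, SE 0.10, edgeR adjusted p = 0.0312). Nnmt belongs to a list of 15 other conjugating enzymes with a median of −0.0024. The lists held 4 to 15 tested genes each, and 0.341% of all genes tested passed. Whether any list differs from that share was not tested, so 1 gene does not mark a pathway as changed. Inmt, an indole N-methyltransferase of the same list, was at 155 and 175 CPM in the wild type pair against 95.0 and 127 CPM in the mutant pair (−0.57, SE 0.14, edgeR adjusted p = 0.240), and DESeq2 called it lower. Mgst2 was near the limit of detection, between 0.0362 and 0.227 CPM in the 4 libraries.

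Donor supply genes gave 0 calls in edgeR, DESeq2 and limma-voom and 0 with an unadjusted p below 0.05 in edgeR. Glutathione supply had 6 positive and 5 negative log2 fold changes (median 0.01), glucuronic acid donor supply 5 and 1 (0.05), and sulfate donor supply 3 and 6 (−0.10). Of the regulators, the 12 genes of the NRF2 system had 7 positive and 5 negative values (median 0.08). Its member Hmox1, which breaks down heme to biliverdin, was at 16.8 and 15.5 CPM in the wild type pair against 22.5 and 21.4 CPM in the mutant pair, without overlap (0.44, SE 0.10, edgeR adjusted p = 0.174). The part of the macrophage markers in the Hmox1 value was not tested. Of the PAR bZIP factors that read the D-box, Hlf was at 38.5 and 37.4 CPM in the wild type pair against 43.8 and 46.4 CPM in the mutant pair (0.25, SE 0.09, edgeR adjusted p = 0.584), and Dbp, Tef and the repressor Nfil3 had overlapping groups.

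The 10 xenobiotic receptors and partners had 5 positive and 5 negative values. At an unadjusted p below 0.05 in edgeR there were 0, and 0 passed in edgeR, DESeq2 or limma-voom. Of 6 tested P450 targets of these receptors, Cyp2c55 was at 7.10 and 9.85 CPM in the wild type pair against 5.06 and 5.80 CPM in the mutant pair (−0.64, SE 0.18, edgeR adjusted p = 0.276). Cyp3a13 had the opposite sign, at 183 and 193 CPM in the wild type pair against 231 and 245 CPM in the mutant pair (0.34, SE 0.10, edgeR adjusted p = 0.330). Among 7 exporters of conjugates, 5 had negative values. Abcc3, which exports glucuronides into blood, was at 290 and 237 CPM in the wild type pair against 195 and 218 CPM in the mutant pair, without overlap (−0.35, SE 0.12, edgeR adjusted p = 0.494). Deconjugating enzymes and other hydrolases had 4 of 6 and 10 of 12 negative values, with medians of −0.20 and −0.07. Of the former, 2 were lower at an unadjusted p below 0.05 in edgeR (2.22% of all genes tested), namely Acy3 (−0.25) and Arsa (−0.24). At that level Pnpla2 of the hydrolases (−0.24) and the exporter Abcg2 (−0.21) were also lower. In the lists of exporters, deconjugating enzymes and other hydrolases, 0 genes were higher at that level, and 0 passed. In the P450 list, Cyp3a13 was higher and Cyp2c55 lower at that level, and 0 passed.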

How the data were processed

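Liver polyA RNA of 2 wild type and 2 Foxo1 mutant samples was sequenced as paired reads of 150 bases. Per the submitters' processing notes, TopHat2 2.1.1, HTSeq 0.6.0 and mm10 were used. The deposited files hold raw counts per gene. The sources used here do not give the annotation release, the strand setting or how reads with several placements were counted, and the TruSeq v2 kit does not mark strand. Symbols, exons and coordinates came from GENCODE vM21 (95.22% of identifiers matched). Counts were tested with edgeR 4.0.16 (quasi-likelihood, robust, TMM scaling, filterByExpr with a minimum count of 10) under R 4.3.3, with Benjamini-Hochberg adjustment and a threshold of 0.05. The same fit was run on simulated counts with known changes. Their spread followed the fitted trend alone and held no outlying library, so the run does not check the spread seen here. The alternatives were DESeq2 1.42.0, limma 3.58.1 (voom), other scalings and filters, no robust estimation, a replicate block, a threshold of 0.1 and leaving out each library. Intervals are 95%. The median SE over all genes tested was 0.15 on the log2 scale.

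Members and gene lists were chosen with earlier results of these data known. Named members were those with an unadjusted p below 0.05, the 3 most abundant per length in each family, the largest value in each direction per prefix at a mean of at least 1 CPM, and others that illustrate a cluster, chosen after their values were seen. From the pathway lists, genes with an unadjusted p below 0.05 were eligible. Left out were 9 pseudogenes and Ugt2a1, which was not analysed here.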

Additional observations from a re-analysis of the deposited data

How the results depend on the processing

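Over all genes, 50 passed in edgeR, against 258 without a filter, 24 with a filter of 1 CPM, 8 without robust estimation, 112 in DESeq2, 7 in limma-voom and 3 to 17 with 1 library left out. Among members 0 passed, against 1 with upper quartile scaling (Gsta4), 8 without a filter, 4 in DESeq2, 3 at an adjusted p below 0.1, and 0 to 1 with 1 library left out (Gstp2, without mutant replicate 1). With the replicate number as a block, 111 genes and 6 members passed (Gsta4, Ugt1a5, Ugt2b38, Sult5a1, Ces1e and Ces2e). Over genes, the deviations of same-numbered samples from their group means had a correlation of −0.0072. The labels state no pairing, and 1 correlation from so few samples cannot decide whether the numbers pair them. With 1 library left out, family medians ranged from −0.34 to −0.034 (GST, the latter without wild type replicate 2), 0.0079 to 0.14 (UGT), −0.10 to 0.29 (SULT) and −0.20 to −0.054 (CES), and summed levels changed by −13.5% to 4.48% (GST), 3.16% to 15.5% (UGT), 5.39% to 14.4% (SULT) and −7.57% to 6.17% (CES). Without a filter the CES median was −0.14. Without a filter low genes enter, and with a library left out fewer samples remain. Why the counts and medians moved between settings was not tested. Depth limits the 20 members left out by the filter, which had at most 29 counts in a library.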

Other observations

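Some untested members had uneven counts. Ces2b had 3 counts in each wild type library, 29 in mutant replicate 1 and 6 in mutant replicate 2, so that mutant replicate 1 alone stood out. Sult3a1 had 8 counts in mutant replicate 1 and 0 in the other libraries. Sult2a1 had 4 and 3 counts in mutant and 0 in wild type libraries, and Sult2a2, which shares 34.6% of its windows with other Sult2a genes, had 4 and 1 in wild type and 0 in mutant libraries. None of these differences was tested.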
